A study of Rattus norvegicus with 5 samples.

Results

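Extracellular and lysosomal proteases and their non-serpin inhibitors were followed in 4 lines of rat hepatocellular carcinoma and in 1 normal liver. Members were chosen by gene name, with earlier results of these data known. They were array probes whose platform gene symbol starts with Mmp, Timp, Adamts, Adam plus a digit, or Cts plus a single letter. Probes of Plau, Plaur, Plat, Reck, St14 and Hpn were also taken. This rule took 89 of 33849 discovery probes, for 66 of the 12198 genes that the annotation names singly. Another 2 probes that name a member together with a different gene were left out.

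The lines C5F and C6 are labelled low-metastatic, N1 and L2 high-metastatic. All 4 came from male F344 rats given N-nitrosomorpholine and diethylnitrosamine, with an age label of 31 weeks. Untreated liver was from a male SD rat, 50 weeks old. Each line and the liver filled 1 single-colour CodeLink array, so the 2 lines of a class were its only replicates and the liver had none. Tumour origin, growth as a line, rat strain and age all differed between the lines and the liver, and cannot be told apart. Each tested difference from liver is the mean of the 2 class means minus liver. Standard errors and p-values rest on the spread between the 2 lines of a class, not on that between classes. The lone liver is taken to vary as lines of a class do. Where a class had 1 usable line, as for Mmp11 and Plau, that line stood for its class. The spread then came from the other class alone. In bulk RNA, fewer cells of a type and less RNA per cell cannot be told apart. Precision is limited by how few arrays there were.

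Matrix metalloproteinases (MMPs) are zinc enzymes, secreted or bound to the membrane, that cleave collagens, laminins and other matrix proteins, and tissue inhibitors of metalloproteinases (TIMPs) block them. The urokinase receptor holds urokinase at the cell surface, where it turns plasminogen into plasmin, an activator of several pro-MMPs. Cathepsins degrade proteins mostly in lysosomes, ADAMs shed membrane proteins, and ADAMTS enzymes act on proteoglycans and procollagens.

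Values are given as log2 of the quantile-normalised signal, with a floor of 1.34 that stands for no measurable signal. A spot is above or near background as the scanner software called it, and a spot it called irregular, contaminated or masked has no usable value. Of the 66 genes, 48 were above background on at least 1 array and 18 on none. Those 18 were Adam17, Adam18, Adam23, Adam28, Adam32, Adam4l1, Adamts2, Adamts9, Adamts15, Adamts18, Adamtsl3, Ctsh, Ctsm, Ctsr, Mmp8, Mmp12, Mmp23 and Timp3. By array, member probes above background numbered 28 (31.5%) in liver, 40 (44.9%) in C5F and 32 (36.0%) in C6, and 32 (36.0%) in N1 and 40 (44.9%) in L2. The same share over all probes was 30.6%, 39.2%, 34.3%, 32.7% and 36.0%. Only 6 member probes were above background on all 5 arrays, and 27 lacked a usable spot on 1 or more arrays.

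**Figure D1:**
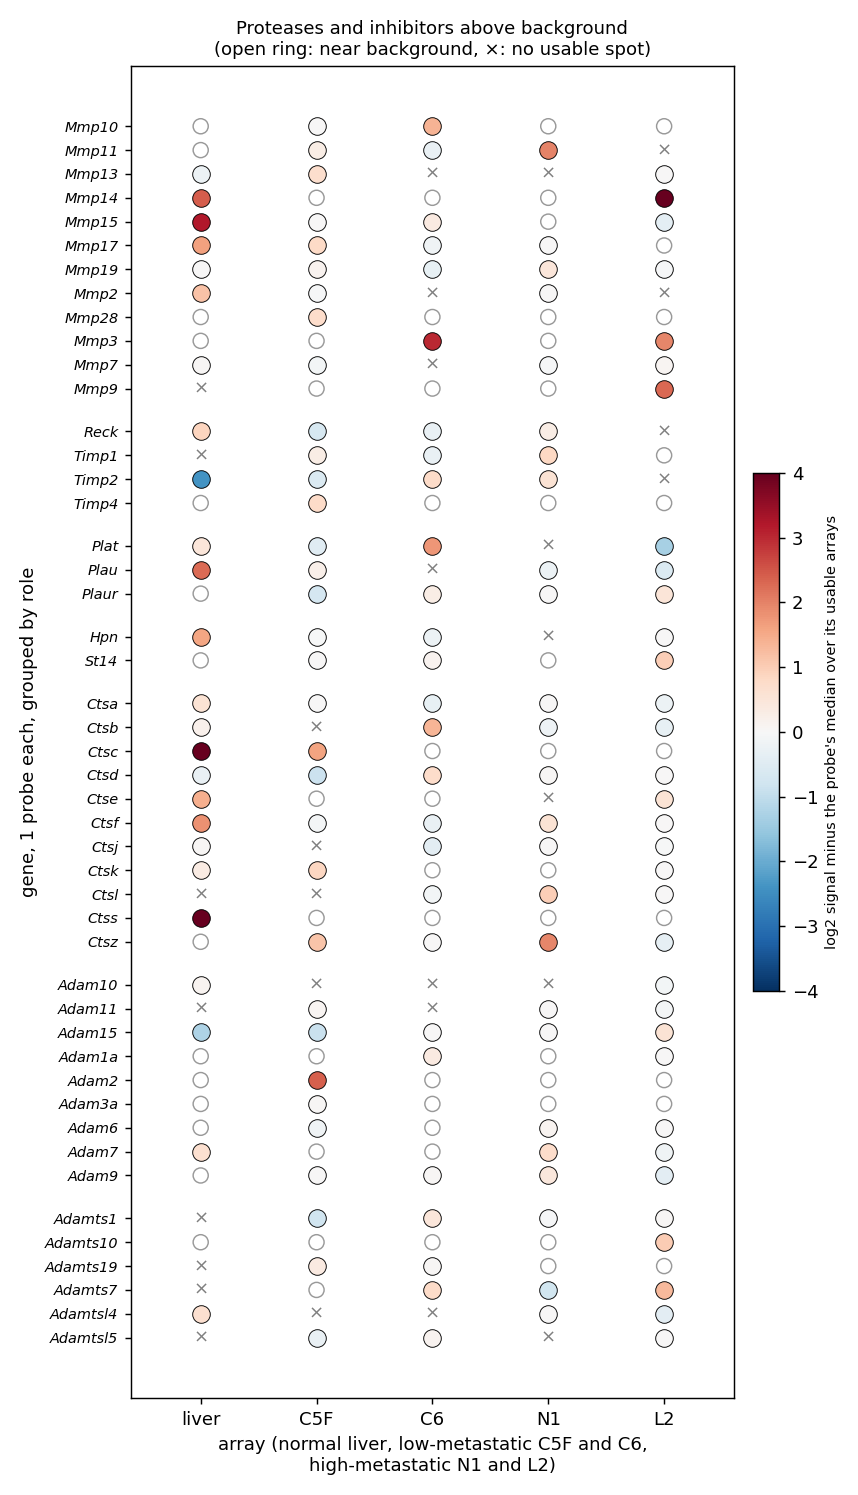
Log2 normalised signal of each measured protease or inhibitor gene (rows, grouped by role) on the 5 arrays (columns), coloured by its difference from the median of that probe; an open ring marks a spot near background and a cross marks no usable spot. Mmp14 is bright in L2 at 7.05 and near background in the other lines, while Timp1 shows the opposite.

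Testing needed a spot above background in liver, or such spots in 2 or more lines, which held for 48 member probes. Of these, 20 were not above background in liver and 5 were kept through the liver alone, so the counts below describe them and support no direction. Against liver, 36 member probes could be tested with limma, and 2 (5.56%) were higher and 5 (13.9%) lower in the lines at an adjusted p under 0.05. Over all 11949 probes tested, 9.01% were higher and 9.38% lower. At an unadjusted p under 0.05 in limma there were 11 member probes. The same share over all probes was not counted, so this number says nothing about the group. The median log2 difference was -0.02 over the members and 0.15 over all probes. The 2 higher were Plaur and Mmp11, and the 5 lower were probes of Ctss, Mmp15, Plau, Ctsf and Adamtsl4. These calls rest on few arrays: with C5F or C6 left out no member and no probe at all was called, and with N1 or L2 left out the members called were Adamtsl4 and Ctss. Without the filter on dim probes none of these 7 was called (limma adjusted p from 0.0564 to 0.152). Ctss was at the floor of 1.34 in C5F and C6, so without N1 or L2 its spread between lines was 0 by construction. Its call in those settings thus follows from the floor and the model prior. With all lines kept, the floor in C5F, C6 and L2 also cut its spread.

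**Figure D2:**
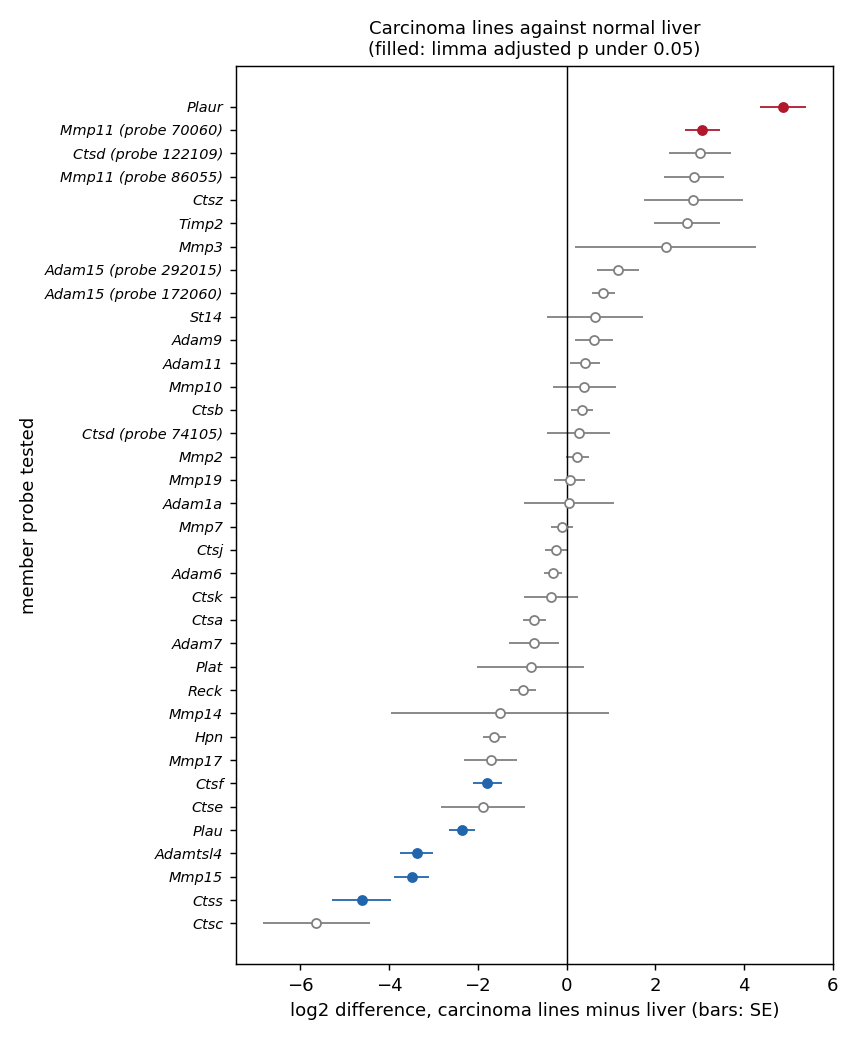
Log2 difference between the carcinoma lines and the liver (x axis) for each member with a tested probe (y axis), with the standard error of the limma fit as a bar. Among those past the threshold, Plaur at 4.87 lies farthest to the right of 0 and Ctss at -4.62 farthest to the left.

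Among the MMPs, 12 of 15 genes were above background on at least 1 array. Of 10 probes tested against liver, 1 was higher and 1 lower, with a median difference of 0.16. The promoters of Mmp3, Mmp7, Mmp10, Mmp13 and Plaur are shown because each holds a match to AP-1, the binding sequence of Fos and Jun proteins, and was above background on 2 or more arrays. Those of Mmp11 and Timp1 are shown as windows without the exact AP-1 letters searched, and both genes were bright in several lines. Variants of those letters were not searched, so these windows cannot be called free of AP-1 sites. Any link between a match and the signal was not tested. RefSeq promoters (build GRCr8) matched 46 of the 66 genes, and each run covers the 250 bases before the start of the gene, 5′ to 3′ on its own strand. Capitals mark the motifs searched on both strands, which were AP-1 (TGANTCA), the ETS-family motif PEA3 (AGGAAG), SP1 (GGGCGG), the TATA box (TATAAA) and the TFEB E-box (CACGTG).
Plaur: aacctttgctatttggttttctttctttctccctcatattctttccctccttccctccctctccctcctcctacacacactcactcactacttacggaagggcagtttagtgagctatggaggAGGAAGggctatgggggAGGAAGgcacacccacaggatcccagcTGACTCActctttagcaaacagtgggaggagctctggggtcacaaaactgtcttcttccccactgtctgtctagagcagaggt
Mmp3: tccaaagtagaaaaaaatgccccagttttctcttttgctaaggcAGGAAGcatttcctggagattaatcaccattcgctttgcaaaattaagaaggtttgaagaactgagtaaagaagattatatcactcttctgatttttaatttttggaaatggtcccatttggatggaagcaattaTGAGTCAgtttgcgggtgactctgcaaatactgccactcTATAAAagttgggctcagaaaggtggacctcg
Mmp10: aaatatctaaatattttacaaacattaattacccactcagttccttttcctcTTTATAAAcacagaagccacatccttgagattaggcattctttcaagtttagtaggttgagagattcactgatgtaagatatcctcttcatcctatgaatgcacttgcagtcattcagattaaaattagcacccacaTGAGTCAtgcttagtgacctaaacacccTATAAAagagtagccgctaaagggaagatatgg
Mmp13: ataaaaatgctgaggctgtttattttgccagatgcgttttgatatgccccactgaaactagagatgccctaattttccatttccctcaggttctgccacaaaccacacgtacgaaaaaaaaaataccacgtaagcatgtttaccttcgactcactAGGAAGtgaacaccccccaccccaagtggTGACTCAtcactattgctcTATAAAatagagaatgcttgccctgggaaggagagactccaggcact
Mmp7: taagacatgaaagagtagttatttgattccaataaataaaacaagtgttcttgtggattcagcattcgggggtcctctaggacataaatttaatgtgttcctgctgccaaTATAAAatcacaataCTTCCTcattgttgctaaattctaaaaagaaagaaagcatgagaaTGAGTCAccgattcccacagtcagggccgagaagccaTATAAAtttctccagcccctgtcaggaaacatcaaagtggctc
Mmp11: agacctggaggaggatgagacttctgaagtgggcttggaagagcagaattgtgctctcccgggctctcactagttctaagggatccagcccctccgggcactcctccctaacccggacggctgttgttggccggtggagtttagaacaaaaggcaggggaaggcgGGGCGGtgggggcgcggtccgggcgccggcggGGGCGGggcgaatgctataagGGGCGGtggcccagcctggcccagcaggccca
Timp1: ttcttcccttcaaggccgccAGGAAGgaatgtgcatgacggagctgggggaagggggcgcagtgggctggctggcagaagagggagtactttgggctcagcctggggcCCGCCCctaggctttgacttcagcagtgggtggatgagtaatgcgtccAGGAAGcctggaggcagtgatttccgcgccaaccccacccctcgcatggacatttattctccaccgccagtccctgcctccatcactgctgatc

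The windows lie at chr1:89181113-89181362, plus strand for Plaur, chr8:12925031-12925280, plus strand for Mmp3, chr8:12974457-12974706, plus strand for Mmp10, chr8:12782579-12782828, plus strand for Mmp13, chr8:13132793-13133042, plus strand for Mmp7, chr20:12730034-12730283, plus strand for Mmp11 and chrX:3771123-3771372, minus strand for Timp1. The AP-1 match of the 5 began, in bases before the start, at 83 in Plaur, 71 in Mmp3, 61 in Mmp10, 66 in Mmp13 and 80 in Mmp7. A TATA match began 32, 33, 47 and 43 bases before the start in Mmp3, Mmp10, Mmp13 and Mmp7, and the Plaur, Mmp11 and Timp1 windows held none. In the Mmp10 window, 2 further TATA matches on opposite strands overlap at 198 and 196 bases, and Mmp7 has another at 140. Mmp11 carried 3 SP1 matches, at 85, 53 and 32 bases. AP-1 occurred in 7 of the 46 member promoters (15.2%) and in 6.34% of all 33469 promoters. The other 2 holders were Adam19, with the match at 169 bases, and Mmp12, at 87. Of the holders, Mmp3, Mmp7, Mmp10, Mmp12 and Mmp13 lie near one another on chromosome 8. PEA3 was in 41.3% of member promoters and 29.5% of all, SP1 in 56.5% and 30.5%, TATA in 23.9% and 12.9%, and the E-box in 8.70% and 5.59%. The 33469 promoters were not limited to genes on the array, as the members were, so these shares do not come from like sets. A match describes the letters and not a bound site.

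Mmp11 encodes stromelysin-3, an MMP activated inside the cell by furin. Its signal was 3.35 in liver, near background, 5.71 in C5F, 5.12 in C6 and 7.40 in N1, and the L2 spot was irregular. The mean of the 3 usable lines lay above liver by at least 4.62-fold, with C5F at least 3.58-fold, C6 at least 2.38-fold and N1 at least 11.6-fold above it, where the bound takes, for liver, the dimmest signal above background on its array. The log2 difference was 3.06 ± 0.39 (SE, 3 lines against 1 liver), limma adjusted p = 0.0485. The call was lost under both other scalings, both other filters and with irregular spots kept (limma adjusted p from 0.0587 to 0.152). A second Mmp11 probe read 2.06 in liver, 4.57 in C5F and 3.63 in C6, and 6.36 in N1 and 5.14 in L2, with liver and C6 near background. That probe differed by 2.87 ± 0.68 (SE), adjusted p = 0.0729, in the same direction but past no threshold.

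Mmp15 encodes a membrane-anchored MMP. Its signal was 7.48 in liver, 4.28 in C5F and 4.63 in C6, and 3.17 in N1 and 3.89 in L2, with N1 near background. All 4 lines lay below liver, 11.2-fold on average (difference -3.49 ± 0.39 SE), limma adjusted p = 0.0231. A second probe could not be compared, since its liver spot was irregular, but its lines read 4.62, 4.80, 3.15 and 3.68 in the same array order. Both probes thus had both low-metastatic lines above both high-metastatic lines.

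Mmp14 encodes MT1-MMP, the membrane enzyme that activates pro-MMP2. Its signal was 4.44 in liver, 1.34 in C5F and 2.01 in C6, and 1.34 in N1 and 7.05 in L2. Only the liver and L2 spots were above background, and L2 exceeded the mean of the other lines by at least 12.5-fold. The difference between classes was 2.52 ± 2.19 (SE, 2 lines against 2), and it was -0.33 without L2. Mmp2, the gelatinase that MT1-MMP activates, had 2 probes above background on every usable array and another near background on all 5. One read 4.80 in liver and 5.08, 4.88 and 5.11 in C5F, C6 and N1, and the other 6.58 in liver, 5.37 in C5F and 5.42 in N1, so the lines were level with liver by the first and below it by the second.

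Stromelysin, collagenase and matrilysin genes differed in pattern. Mmp3, stromelysin-1, was near background in liver (1.34), C5F (1.34) and N1 (2.67), and above it in C6 at 5.70 and L2 at 4.63. It was thus seen in 1 line of each class. Mmp10, stromelysin-2, was above background in C5F at 3.69 and C6 at 5.07, and near it in liver at 3.43, N1 at 3.70 and L2 at 2.87. Mmp13, a collagenase, read 6.67 in liver, 7.59 in C5F and 6.90 in L2. The C6 and N1 spots of Mmp13 were irregular. Mmp7, matrilysin, read 4.40 in liver, 4.23 in C5F, 4.31 in N1 and 4.44 in L2, with liver inside the range of the lines.

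Mmp19 was level across all arrays, with 7.21 in liver, 7.35 in C5F and 6.88 in C6, and 7.69 in N1 and 7.17 in L2. Mmp17, a membrane-anchored MMP, read 5.60 in liver, 4.77 in C5F and 3.80 in C6, and 3.96 in N1 and 3.05 in L2. Its difference of -1.71 ± 0.60 (SE) had a limma adjusted p of 0.137. Mmp9, gelatinase B, was above background in L2 alone at 3.91, and Mmp28 in C5F alone at 3.78, both near the limit of detection.

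Of the inhibitors, 4 of 5 genes were above background somewhere, and none of 2 probes tested against liver passed (median difference 0.87). Timp1 read 7.69 in C5F, 7.09 in C6 and 8.21 in N1 but 2.69, near background, in L2, and its liver spot was irregular. The mean of the 3 bright lines exceeded L2 by at least 18.1-fold. L2 was thus the lowest line for Timp1 and the highest for Mmp14, an enzyme that TIMP1 inhibits poorly. The class difference of Timp1 was -1.94 ± 2.12 (SE), and it was 0.82 without L2. Timp2, which binds MT1-MMP and pro-MMP2, read 4.32 in liver, 6.13 in C5F, 7.48 in C6 and 7.29 in N1, with an irregular L2 spot. All 3 usable lines lay above liver, by 2.72 ± 0.75 (SE), adjusted p = 0.13 in the limma fit.

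Reck, a membrane-anchored inhibitor of MMPs, read 4.99 in liver, 3.43 in C5F, 3.79 in C6 and 4.40 in N1, with an irregular L2 spot. Its difference of -0.98 ± 0.30 (SE) had a limma adjusted p of 0.151. A second Reck probe was at the floor of 1.34 in liver, C5F, C6 and N1 and at 4.74 in L2, at least 2.51-fold above the mean of the other lines. Timp4 was above background in C5F alone, at 4.08, with N1 at 3.80 called near background.

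**Figure D3:**
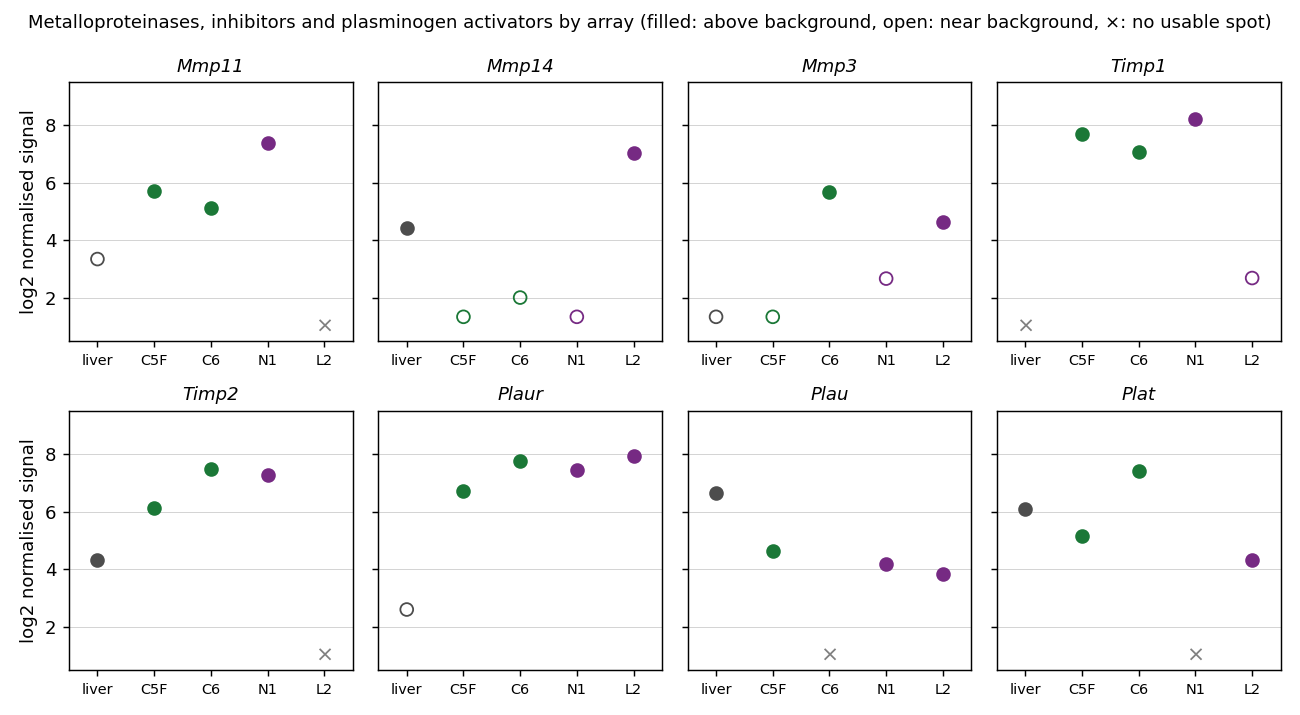
Log2 normalised signal (y axis) of metalloproteinases, inhibitors and plasminogen activators in liver, C5F, C6, N1 and L2 (x axis), 1 array each; filled points are above background, open points near it and crosses mark no usable spot. Plaur is near background in liver at 2.60 and between 6.74 and 7.95 in the lines, and Timp1 is low in L2 alone among the lines.

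Of the plasminogen system, 3 probes were tested against liver, 1 higher and 1 lower. Plaur, the urokinase receptor, read 2.60 in liver, near background, 6.74 in C5F and 7.76 in C6, and 7.45 in N1 and 7.95 in L2. Every line exceeded liver, by at least 7.30-fold in C5F and 14.8-fold in C6, and 11.9-fold in N1 and 16.9-fold in L2. The difference was 4.87 ± 0.52 (SE, 4 lines against 1 liver), limma adjusted p = 0.021. Leaving out any 1 line gave 4.62 to 5.13, with adjusted p from 0.0617 to 0.0705.

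Plau, urokinase itself, read 6.67 in liver, 4.62 in C5F, 4.17 in N1 and 3.83 in L2, and the C6 spot was irregular. Its 3 usable lines lay below liver by 2.36 ± 0.30 (SE), a decrease of 5.13-fold at an adjusted p of 0.0475. The irregular C6 spot, if kept, would read 7.15, above liver, and the call was lost with irregular spots kept (-1.56, limma adjusted p = 0.372). It was also lost under both other scalings, with the authors' values and under both other filters, at adjusted p from 0.0525 to 0.119. A second Plau probe was near background on every array, at 1.34 in liver, and could show no decrease. Over the lines the receptor was thus higher and, by the brighter Plau probe alone, its ligand lower than in liver. C6 gave no usable value for the ligand by that probe. Plat, tissue plasminogen activator, read 6.11 in liver, 5.17 in C5F, 7.42 in C6 and 4.32 in L2, on both sides of liver.

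The membrane serine proteases hepsin and matriptase activate growth factor precursors. Hpn read 7.93 in liver, 6.34 in C5F, 6.12 in C6 and 6.38 in L2, with an irregular N1 spot. All 3 lay below liver, by 1.63 ± 0.26 (SE) with a limma adjusted p of 0.0654, which misses the threshold. St14, matriptase, was near background in liver at 3.23 and N1 at 2.46, and above it in C5F at 3.99, C6 at 4.12 and L2 at 4.96.

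Cathepsins were above background for 11 of 14 genes, and of 11 probes tested against liver none was higher and 2 were lower, with a median of -0.35. Ctss, cathepsin S, the cysteine protease of antigen-presenting cells, read 6.34 in liver, 1.34 in C5F, C6 and L2, and 2.86 in N1. All lines were near background, and liver exceeded their mean by at least 7.51-fold, and single lines by at least 6.2-fold in N1 to 10.3-fold in C5F (difference -4.62 ± 0.67 SE, adjusted p = 0.0338 in limma). Ctsc, which activates serine proteases of immune granules, read 7.88 in liver, 3.94 in C5F and 1.34 in C6, and 2.33 in N1 and 1.34 in L2. Liver exceeded C6, N1 and L2 by at least 20-fold, 18.0-fold and 21.0-fold by this probe. Its difference over all lines, -5.64 ± 1.20 (SE), had a limma adjusted p of 0.0605. A second Ctsc probe was near background on every array, at 1.41 in liver and 1.34 in each line, and so showed no such difference.

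Markers of Kupffer cells and macrophages were also brighter in liver than in the lines, as were those of other liver cells below. The 5 of 8 listed genes on the array were all above background in liver, and 2 of 5 in each line. Their summed signal was 3720 in liver and 58.8 to 79.8 in the lines, and their part in the cathepsin values was not tested. Endothelial markers summed to 694 in liver and 20.9 to 44.8 in the lines, and hepatocyte markers to 39200 in liver and 50.7 to 2310 in the lines, highest in C5F. Of the usable hepatocyte markers, 9 of 9 were above background in liver, 7 of 9 in C5F, 1 of 9 in C6, 2 of 10 in N1 and 1 of 9 in L2. Alb, which encodes albumin, was near background in all 4 lines, while Hnf4a, a hepatocyte transcription factor, was above it in all 4, at most at 5.41 (C5F).

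**Figure D4:**
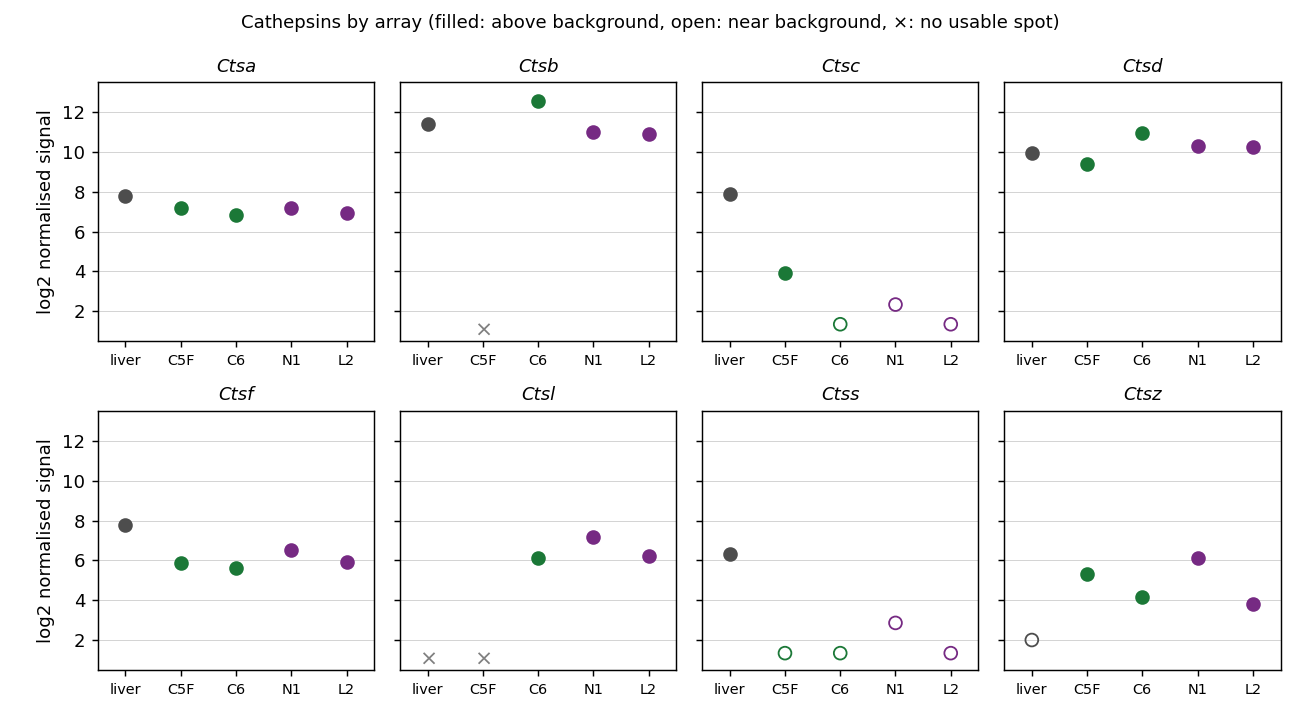
Log2 normalised signal (y axis) of 8 cathepsins in liver, C5F, C6, N1 and L2 (x axis), 1 array each; filled points are above background, open points near it and crosses mark no usable spot. Ctss and Ctsc are bright in liver and low in most lines, whereas Ctsd lies between 9.37 and 10.97 on all arrays.

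Ctsf, cathepsin F, read 7.77 in liver, 5.86 in C5F and 5.64 in C6, and 6.52 in N1 and 5.93 in L2. It was above background everywhere and 3.45-fold lower in the lines (difference -1.79 ± 0.33 SE), limma adjusted p = 0.0479. This call was lost under both other scalings and both other filters, at adjusted p from 0.0582 to 0.106. Ctsb, a widely expressed lysosomal enzyme, read 11.43 in liver, 12.58 in C6, 11.02 in N1 and 10.91 in L2, with a contaminated C5F spot. Ctsd, its aspartic counterpart, read 9.93 in liver, 9.37 in C5F and 10.97 in C6, and 10.28 in N1 and 10.23 in L2. Neither of these probes passed against liver, and under other scalings the sign of both differences turned.

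Ctsa, which protects lysosomal sialidase, read 7.77 in liver, 7.20 in C5F and 6.84 in C6, and 7.18 in N1 and 6.95 in L2. All 4 lines lay a little below liver (-0.73 ± 0.26 SE, adjusted p = 0.143, limma). Ctsz, an exopeptidase, was near background in liver at 2.00 and above it in the lines at 5.32, 4.17, 6.13 and 3.82 from C5F to L2. The mean of its lines exceeded liver by at least 1.99-fold, and L2 alone gave no bound above 1, with a difference of 2.86 ± 1.11 (SE) and a limma adjusted p of 0.162. Ctsl read 6.13 in C6, 7.20 in N1 and 6.23 in L2, with irregular spots in liver and C5F. Ctse, an aspartic protease of the gut, was above background in liver at 5.11 and L2 at 4.24, near it in C5F at 3.07 and C6 at 1.34, and irregular in N1. Ctsj read 5.28 in liver, 4.83 in C6 and, with N1 at 5.26 and L2 at 5.23, gave a level signal over the usable arrays. A second Ctsd probe, at the floor in liver, was above background in C5F at 4.38, N1 at 5.43 and L2 at 4.22, and so did not follow the brighter probe in liver. Ctsk, the collagen-cleaving cathepsin of osteoclasts, was above background in liver at 4.19, C5F at 4.72 and L2 at 3.85.

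ADAM genes were above background in 10 of 16 cases, and none of 7 probes tested against liver passed (median 0.42). Adam15, a membrane ADAM with an integrin-binding motif, read 7.45 in liver, 7.79 in C5F and 8.68 in C6, and 8.70 in N1 and 9.25 in L2. Every line was above liver, by 1.16 ± 0.48 (SE), adjusted p = 0.182 in limma. Adam9 was near background in liver at 4.05 and above it in the lines, at 4.64, 4.70, 5.10 and 4.23 from C5F to L2. Adam10, a sheddase of Notch and cadherins, was usable on only 2 arrays, at 5.87 in liver and 5.65 in L2. Adam17, the sheddase of TNF, was not above background on any array. The brightest Adam11 probe was level over the usable lines, at 6.67 in C5F, 6.58 in N1 and 6.49 in L2. Adam6, Adam7, Adam1a and Adam3a stayed dim, with no value above 4.63. Adam2, a sperm protein, was above background in C5F alone at 4.31, and a single Adam19 probe in N1 alone at 4.37. All other Adam19 probes, including the brightest on average, were near background on every array.

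ADAMTS and ADAMTS-like genes were above background in 6 of 11 cases. Adamts7 was at the floor in C5F and read 5.97 in C6, 4.41 in N1 and 6.50 in L2, on average at least 6.28-fold above C5F, with a masked liver spot. Adamts1, which cleaves aggrecan and versican, read 3.62 in C5F and 4.91 in C6, and 4.38 in N1 and 4.48 in L2. Adamtsl5 read 6.86 in C5F, 7.28 in C6 and 7.15 in L2, and Adamts19 was above background in C5F at 4.37 and C6 at 4.06 only. A probe of Adamtsl4, a fibrillin-binding protein with no protease domain, read 8.09 in liver, 4.49 in C5F and 4.26 in C6, and 5.40 in N1 and 4.68 in L2. It was the only ADAMTS-type probe tested against liver, and the lines were 10.4-fold lower (-3.38 ± 0.37 SE, limma adjusted p = 0.0223). This probe was named after its values were seen, because the brightest Adamtsl4 probe, at 6.93 in liver, 6.29 in N1 and 5.87 in L2, could not be tested.

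Each line was also set against the same liver, without a test. At 2-fold or more, 6 of 35 members were higher and 13 lower in C5F, 12 and 10 of 34 in C6, 9 and 9 of 35 in N1, and 9 and 10 of 35 in L2. Over all probes, the shares higher were 25.3%, 25.8%, 26.4% and 24.1%, and the shares lower 22.9%, 21.6%, 20.5% and 23.0%, in the same order. The lines share 1 liver array, so their likeness is not independent.

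Setting the high-metastatic against the low-metastatic lines asks which of these genes go with metastatic ability. Of 44 member probes tested in limma none was called, and 0% of all 13741 probes were. At an unadjusted p under 0.05 there were 3 member probes (6.82%) beside 7.31% of all probes, and the median difference was 0.15 over members and 0 over all. The 3 were Mmp15, by its second probe (-1.30 ± 0.27 SE), Ctsb (-1.62 ± 0.26 SE, with no C5F spot) and Mmp11 (1.99 ± 0.41 SE, with no L2 spot). After adjustment in limma, each had a p of 0.67. An exact permutation test of 2 lines against 2 cannot go below p = 0.3333.

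Of 29 member probes measured in all 4 lines and kept, 5 (17.2%) had both high-metastatic lines above both low-metastatic ones, beside 17.5% of all probes. The 5 were probes of Adam6, Adam15, Adamtsl4, Ctsf and Mmp11. Another 3 (10.3%) had the opposite order, beside 19.2% of all probes, namely Adamts19 and both probes of Mmp15. Neither share of the members was above that of all probes. Mmp11 and Mmp15 gave the same order of classes with each usable spot of both of their probes.

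Lines also differed one by one. Among 69 member probes usable in all 4 lines, 6 were above background in C5F alone, 0 in C6, 1 in N1 and 4 in L2. These are 8.70%, 0%, 1.45% and 5.80%, beside 5.56%, 0.907%, 0.907% and 2.04% of all probes. In L2 they were Mmp9, Mmp14, Adamts10 at 4.38 and the second Reck probe. In C5F they were Adam2, Adam3a, the dimmest Adamtsl4 probe, Ctsc, Mmp28 and Timp4. The lowest signal called above background was 2.98 in C5F, beside 3.56 in C6, 3.70 in N1 and 3.48 in L2. Adam3a was above background in C5F at 3.21, while N1, at 3.58, was called near it. How far this lower limit accounts for the probes seen in C5F alone was not tested.

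Genes that work with these proteases were listed by textbook role. The shares over all 11949 tested probes were 9.01% higher and 9.38% lower in the lines. With so few genes tested per list, the counts below describe single genes and were not tested against those shares. Of lysosomal hydrolases and membrane proteins, 15 were tested against liver and none passed, with a median of -0.65. Among receptors, cofactors and other inhibitors, 2 of 7 were higher and none lower: Cd63, a tetraspanin that binds TIMP1, by 2.27 ± 0.21 (SE, limma adjusted p = 0.0172), and Anxa2, a plasminogen receptor, by at least 1.78-fold on average (adjusted p = 0.0159). Of 3 AP-1 and ETS factors tested, 1 was higher. It was Fosl1, a Fos family member, at 2.26 in liver, near background, 6.45 in C5F, 7.45 in C6 and 7.68 in L2, on average at least 10-fold above liver (limma adjusted p = 0.0427), with no usable N1 spot. The Fosl1 call was lost with the authors' values, an offset of 50 or either other filter (adjusted p from 0.0555 to 0.154).

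Of 5 upstream activators, 2 were lower and none higher: Klkb1, plasma prekallikrein, by on average at least 13.1-fold (limma adjusted p = 0.0067), and Hgfac, the activator of hepatocyte growth factor, by 2.25 ± 0.28 (SE, adjusted p = 0.0274, or 0.0547 without a filter). Among 7 matrix substrates 2 were lower. Vtn, vitronectin, was lower by on average at least 199-fold (limma adjusted p = 0.0102). Dcn, decorin, was lower by at least 4.40-fold on average (limma adjusted p = 0.00703). Klkb1 and Dcn were at the floor of 1.34 in all 4 lines. Their spread between lines was thus 0 by construction, and their adjusted p-values follow from the floor and the model prior. Vtn was at the floor in C5F, C6 and L2, which also cut its spread. Of 4 cystatins and other cathepsin inhibitors, 1 was lower, Cst7, an inhibitor made by immune cells, by 1.69 ± 0.29 (SE, limma adjusted p = 0.0428), a call kept, among other settings, only with an offset of 50 and with a robust fit. None of the 5 tested ADAM substrates passed. No gene of these lists was called between the classes, where 17 lysosomal genes had a median difference of 0.05.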

How the data were processed

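Total RNA (ISOGEN) was labelled as biotin cRNA and hybridised to 5 CodeLink Rat Whole Genome arrays. Per the file headers, the authors quantified scans with CodeLink Expression Analysis 4.1. The deposited raw intensity, already background-subtracted, was used; the authors' normalized intensity served as an alternative. Control spots (1280) were left out, and irregular, contaminated and masked spots were set to missing. Signals were quantile normalised (limma 3.58.1, R 4.3.3, version 1.17.8 of data.table), floored at 2.53 and taken to log2. Filtering left 16377 probes. One 3-group limma model with empirical Bayes (prior 1.46, at most 2 residual degrees of freedom) and Benjamini-Hochberg adjustment at 0.05 gave every test, two-sided. Probes left without residual degrees of freedom got no test. "At least" folds use the lowest above-background signal per array, 14.6 for liver, 7.87 for C5F, 11.8 for C6, 13.0 for N1 and 11.2 for L2. The procedure was tested on simulated data, and figures used Python 3.11.15 with matplotlib 3.10.9.

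Gene names came from the platform annotation, which names 1 gene for 16753 probes, several for 165 and none for 16931; all 89 member probes matched RefSeq. A gene's brightest probe stood for it. The rule for named genes took the genes that mark the group (Mmp11, Mmp14, Timp1 and Plaur), those past the threshold, those with the widest gap between classes or the largest range over the lines, and all inhibitors, plasminogen genes and cathepsins above background. Members and lists were chosen with earlier results of these data known. Alternatives were other scalings, filters, an offset of 50, irregular spots kept, the mean of a gene's probes, a robust fit and leaving out each line.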

Additional observations from a re-analysis of the deposited data

Results flagged for a closer look

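In 4 of 37 member probes that were usable in all 4 lines, above background in at least 1 and not the same in all, 1 line stood far from the other 3, with a gap to its nearest neighbour, over the whole range, above Dixon's limit. For freely varying values chance gives such a flag in about 1 of 20 groups, which does not hold where 3 lines share the floor and the ratio is 1 by construction. Mmp14 was high in L2, at 7.05, with a ratio of 0.883. The second Reck probe was high in L2 at 4.74, where the other lines were all at the floor, so that its flag is fixed by the floor. Adam1a was low in C5F, at 1.73, with a ratio of 0.849. The dimmest Adamtsl4 probe read 3.32 in C5F and was at the floor in the other lines, again a flag fixed by the floor.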

How the results depend on the processing

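No paired analysis was possible because the sample titles name cell lines and number no replicates, and slides held 1 array each. Probes higher in the lines than in liver numbered 1077, and 605 with an offset of 50, 623 without a filter, 1850 with irregular spots kept and 0 to 145 with 1 line left out. Probes lower numbered 1121, then 1725 without a filter and 0 to 492 with 1 line left out. Members higher numbered 2, then 1 under median scaling, 75th percentile scaling, a filter of 1 array, irregular spots kept or the mean of probes, 0 without a filter and 0 to 0 with 1 line left out. Members lower numbered 5, then 3 under both other scalings, without a filter, with a filter of 1 array and with the mean of probes, and 0 to 2 with 1 line left out. The 3 without a filter were Mmp23, Adamts9 and Mmp17, none of the 5. Members with both high-metastatic lines above numbered 5, then 3 under 75th percentile scaling, 9 without a filter and 12 with irregular spots kept. The opposite order had 3, then 7 with irregular spots kept. Without a filter or with irregular spots kept, more probes can be ordered. The higher counts thus do not by themselves mean a larger share, and a gain over all probes under those settings was not tested.

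Median scaling moved the median of all probes from 0.15 to 0.29 against liver and from 0 to -0.12 between classes. Against liver the sign turned for Ctsb (-0.29 under median scaling, -0.27 under 75th percentile scaling, -0.29 with the authors' values), Ctsd (-0.08, -0.15 and -0.23, and -0.12 to 0.68 with 1 line left out), Mmp7 (0.07 under median scaling, 0.10 with irregular spots) and Plat (0.11 with irregular spots). Between the classes it turned for Adam11 (0.12, authors' values), Ctsl (-0.13, irregular spots), Mmp3 (-0.16, offset) and Mmp7 (-0.09 under median scaling, -0.27 with irregular spots). With 1 line left out the class difference ranged from -0.51 to 4.11 for Adamts7, -2.10 to 0.49 for Ctsc, -0.33 to 5.38 for Mmp14, -2.06 to 1.10 for Mmp3, -4.71 to 0.82 for Timp1 and -0.06 to 0.96 for Plaur. The cause of these changes was not tested.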

Other observations

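Spots called irregular still carry a signal, which the main comparisons left out; the values here follow renormalisation with those spots. Kept, the Timp1 spot in liver would read 5.85, below C5F, C6 and N1, and the Timp2 spot in L2 would read 6.90, above liver. The brighter Mmp11 probe would read 6.18 in L2, and the second Mmp15 probe 7.62 in liver, so both would follow the order of their other probe. The brighter Reck probe would read 6.29 in L2, above liver at 4.99, and the Mmp9 spot in liver 5.61, above L2 at 3.91. Adamts15 and Adam23, above background on no array, would read 7.26 in L2 and 5.97 in liver.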
